A study of Mus musculus with 6 samples.

Results

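Immediate early response genes are switched on within minutes of a growth factor, serum or stress signal, without the need for new protein. The 10 genes examined here were Fos, Fosb, Jun, Junb, Egr1, Ier2, Dusp1, Atf3, Zfp36 and Nr4a1. They were taken through every probe set whose platform annotation names 1 of them alone, which gave 11 probe sets, 2 for Jun and 1 for each other gene. All 10 members were on the array, and 5 of them (Jun, Egr1, Ier2, Dusp1 and Atf3) reached the level at which genes were tested, among 11897 tested genes.

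RNA came from ovaries dissected from mouse embryos at E15.5 (embryonic day) and was read on 6 Affymetrix arrays, 3 labelled as Dmrt1 knockout and 3 as wild type. The series design text calls the removal of Dmrt1 conditional. The Cre line, the cells it acts in, the strain, and whether ovaries were pooled are not given in the sources used here. Replicates are numbered 1 to 3 in each group, and nothing says that they came from separate embryos or litters. The p-values therefore speak only of the spread among these arrays, part or all of which can be technical.

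Signals reach these genes through the RAS and MAP kinase cascade. It activates ELK factors bound with SRF at a serum response element, and CREB-type factors at a cyclic AMP response element, in early gene promoters. The proteins made include AP-1 subunits (FOS and JUN families), EGR and NR4A factors, and inhibitors that end the response. Early gene RNA is short-lived and responds to tissue handling as well as to signals in the living tissue. In the ovary, EGR1 and AP-1 factors are known, for example, from gonadotropin responses of granulosa cells after birth.

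The values are GCRMA intensities (a background-adjusted, normalized summary of each probe set), taken here to log2. A probe set entered the test if at least 3 arrays, of either group, reached log2 4 (16 intensity units), here called the filter level. The median intensity of an array was 13.2 to 13.4 (knockout) or 14.4 to 14.7 (wild type), and 7.87 to 7.92 log2 units in both groups over tested probe sets. The Dmrt1 probe set lay under the filter level on every array (log2 2.58 to 3.10 in knockout, 3.08 to 3.70 in wild type), so it does not check the genotype. Xist, the RNA of the inactive X chromosome, read at most log2 2.0 on knockout replicate 1 and at least 9.16 on the other 5. By each of its 3 probe sets it was also lower on knockout replicates 2 and 3 (9.16 to 10.1) than on any wild-type array (9.87 to 11.4). The Y-linked genes Uty, Kdm5d and Eif2s3y read at most log2 1.92 on all 6 arrays. Differences without knockout replicate 1 are also given for the tested members and for Fos, Nr4a1 and Id1.

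Over all tested genes, 422 passed limma's test at an adjusted p under 0.05, which is 3.55% (1.28% higher and 2.27% lower in knockout). Of the 5 tested members 0 passed, and 1 of them, Egr1, had an unadjusted limma p under 0.05, against 17.4% of all tested genes. Egr1 was also the only one of the 5 whose groups did not overlap, a state shared by 23.7% of tested genes. The median difference of the 5 was -0.09 log2 units, against 0.02 over all tested genes, with 2 members higher and 3 lower.

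**Figure D1:**
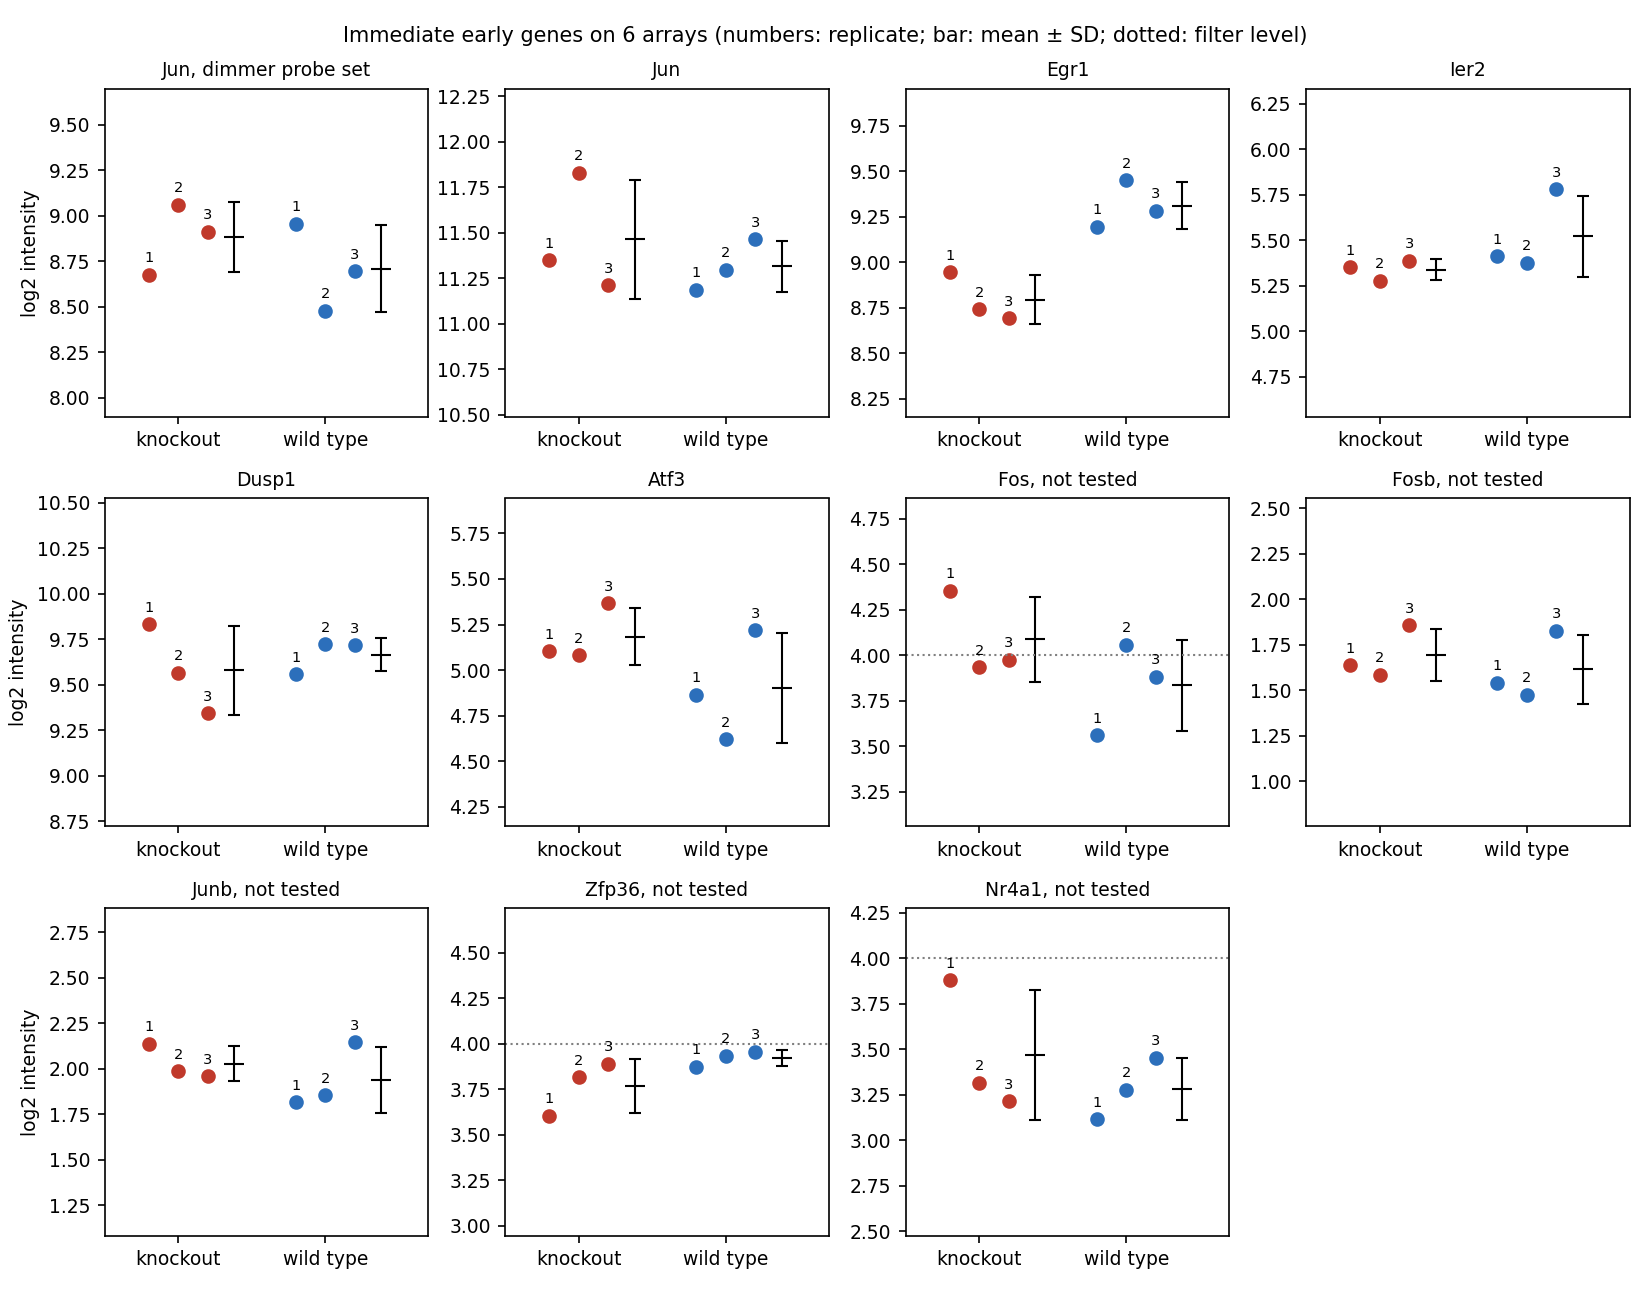
Log2 intensity of each member probe set on the 6 arrays, with 1 panel per probe set, the replicate number beside each point, and the mean ± SD of 3 arrays as a bar. Each vertical axis spans the same width around its own mean. The knockout arrays of Egr1 (8.69 to 8.95) all lie below the wild-type arrays (9.20 to 9.45), and the groups overlap in every other panel.

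Egr1 encodes a zinc finger transcription factor that binds GC-rich sites and is induced through serum response elements. The probe set read 493, 429 and 414 units of intensity on knockout replicates 1, 2 and 3. Wild-type replicates 1, 2 and 3 read 587, 699.9 and 623. All knockout arrays were below all wild-type arrays, which held for 11.4% of tested genes in this direction. The mean log2 value was 8.79 ± 0.13 (SD, n = 3) in knockout and 9.31 ± 0.13 in wild type.

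The Egr1 difference was -0.52 ± 0.14 log2 units (SE, n = 3 arrays each), with a 95% interval of -0.83 to -0.21. Knockout ovaries thus had 0.70 times the wild-type intensity, with an interval of 0.56 to 0.87 times. It did not pass over all tested probe sets (limma adjusted p = 0.0552, unadjusted 0.0039). The call was close to the threshold: the adjusted p was 0.0347 with each gene's probe sets averaged and 0.0476 after dropping probe sets with the suffix _s_at or _x_at, whose probes may hit more than 1 transcript, while the difference stayed -0.52. Both of those settings test fewer probe sets and leave the Egr1 values as they are. Leaving out 1 array at a time gave differences of -0.59 to -0.45 and adjusted p of 0.0590 to 0.238, and without knockout replicate 1 the values were -0.59 and 0.0590.

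Marker lists of 7 cell types were set beside these values. Their counts are read against the 3.55% of all tested genes that passed limma's test and the 17.4% with an unadjusted p under 0.05. Of 9 tested stroma markers 8 had a negative difference and 0 passed limma's test through the brightest probe set (5 at an unadjusted p under 0.05). Their summed intensity was 35373 to 37686 on knockout arrays and 40309 to 44387 on wild-type arrays. The smallest p there was that of Dcn, a matrix proteoglycan (-0.35 ± 0.10, SE, n = 3 arrays each; limma adjusted p = 0.0716). A dimmer Dcn probe set fell by 1.76 ± 0.26 and passed (0.0028), with all knockout arrays below all wild-type arrays. Of 7 tested endothelium markers 3 had an unadjusted p under 0.05 and 2 fell, the receptors Flt1 (limma adjusted p = 0.0184) and Tek (0.0452). The sums of the 7 were 1476 to 1833 against 2139 to 2469, with Pecam1 and Cdh5 under the filter level. Of 10 macrophage markers all had a negative difference and 5 had an unadjusted p under 0.05. Among them 2 fell, Ptprc (limma adjusted p = 0.0357) and Mrc1 (0.0358). The sums of the 10 overlapped, at 5116 to 8430 and 8047 to 9687.

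Without knockout replicate 1, 0 macrophage and 1 endothelium markers were still called, by limma. Of 8 germ cell markers 3 had an unadjusted p under 0.05 and 1 rose, Dppa3 (log2 6.26 to 10.2 on knockout arrays, 3.60 to 4.23 on wild-type arrays; limma adjusted p = 0.00817). Dppa3 was under the filter level on wild-type replicates 1 and 2, and its knockout values alone were enough to enter it into the test. The sums of the 8 markers were 10835 to 15674 in knockout, or 10835 and 12220 without knockout replicate 1, against 10067 to 11533. Kit and Nobox were under the filter level. Of 11 pregranulosa markers 8 had a positive difference, 0 passed and 2 had an unadjusted p under 0.05. These were Amhr2, higher and with the smallest p (limma adjusted p = 0.172), and Runx1, lower (-0.40) and named after its values were seen. Other Amhr2 probe sets differed by 0.44 and -0.06 (0.0840 and 0.906). The sums of the 11 were 18443 to 19349 against 16749 to 17370. Of 3 erythroid markers all had a negative difference and 1 had an unadjusted p under 0.05. That marker, Slc4a1, fell (limma adjusted p = 0.0275). Of 7 mesonephros markers all had a positive difference and 0 passed (0 at an unadjusted p under 0.05; smallest p, Cdh1, adjusted 0.255). The part of these markers in the Egr1 difference was not tested, and in whole ovaries fewer cells of a type and less RNA per cell cannot be told apart.

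Jun, the AP-1 subunit that can pair with itself or with FOS proteins, was measured by a pair of probe sets. The brighter read 2606, 3637 and 2368 on the knockout arrays, in the order of their replicate numbers as for every gene below, and 2328, 2515 and 2824 on the wild-type ones. Knockout replicate 2 was the highest array and the other two knockout arrays lay within the wild-type range. The difference was 0.15 ± 0.15 log2 units (SE, n = 3 arrays each; 95% interval -0.19 to 0.49; limma adjusted p = 0.646), and it was -0.04 without knockout replicate 2 and 0.20 without knockout replicate 1.

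The dimmer Jun probe set read 409, 534 and 482 in knockout and 497, 357 and 415 in wild type. Knockout replicate 2 was again the highest array, and the groups overlapped. Its difference of 0.17 ± 0.17 (SE, n = 3 arrays each; interval -0.20 to 0.55; limma adjusted p = 0.620) was close to that of the brighter one. Across the 6 arrays the probe sets of Jun correlated at r = 0.35, given as a description. These intervals leave room for a Jun level in knockout from 0.87 to 1.46 times that of wild type.

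The other AP-1 members were dim. Fos, the subunit that pairs with JUN proteins, read 20.5, 15.3 and 15.7 intensity units in knockout and 11.8, 16.7 and 14.7 in wild type. Only knockout replicate 1 and wild-type replicate 2 reached the filter level, so Fos was not tested. In a fit of all 45037 probe sets without the filter, the Fos difference was 0.25 ± 0.19 log2 units (SE, n = 3 arrays each; limma adjusted p = 0.513), or 0.12 without knockout replicate 1.

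Fosb, a close relative of FOS, read 3.11, 3.0 and 3.62 in knockout and 2.91, 2.78 and 3.55 in wild type. Junb, a JUN relative that often restrains JUN, read 4.40, 3.96 and 3.89 in knockout and 3.52, 3.62 and 4.43 in wild type. All 12 of these values were far under the filter level of 16, where GCRMA values carry little information, so they bound the signal and set no order between groups. What these probe sets would read in stimulated tissue is not known here.

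Atf3, a stress-induced factor of the ATF/CREB family, read 34.4, 33.8 and 41.2 in knockout and 29.1, 24.6 and 37.2 in wild type. Wild-type replicate 3 lay among the knockout arrays, and the other 2 wild-type arrays lay below them. The difference was 0.28 ± 0.20 log2 units (SE, n = 3 arrays each; 95% interval -0.17 to 0.73; limma adjusted p = 0.484), or 0.89 to 1.66 times the wild-type level. It was 0.14 without wild-type replicate 2, 0.44 without wild-type replicate 3 and 0.32 without knockout replicate 1.

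Ier2, a nuclear protein of the early response, read 40.9, 38.8 and 41.9 in knockout and 42.6, 41.6 and 54.9 in wild type. Wild-type replicate 3 stood above the other 5 arrays, which lay between 38.8 and 42.6. The difference was -0.18 ± 0.18 (SE, n = 3 arrays each; interval -0.59 to 0.22; limma adjusted p = 0.623), and it was -0.06 without wild-type replicate 3 and -0.19 without knockout replicate 1.

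Nr4a1, an orphan nuclear receptor also called Nur77, read 14.7, 9.95 and 9.28 in knockout and 8.66, 9.69 and 10.95 in wild type, under the filter level on all 6 arrays. Knockout replicate 1 was the highest array and the other knockout arrays lay among the wild-type ones. In the fit without the filter the difference was 0.19 ± 0.20 (SE, n = 3 arrays each; limma adjusted p = 0.650), or -0.02 without knockout replicate 1.

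Of the 2 members that end the response, Dusp1 did not pass and Zfp36 was not tested. Dusp1, the phosphatase that switches MAP kinases off, read 912, 757 and 650.2 in knockout and 754, 844 and 842 in wild type. Knockout replicate 1 was the highest array and knockout replicate 3 the lowest. The difference was -0.09 ± 0.15 log2 units (SE, n = 3 arrays each; 95% interval -0.41 to 0.24; limma adjusted p = 0.799), or 0.75 to 1.18 times the wild-type level. Its sign turned without knockout replicate 3 (0.03), and it was -0.21 without knockout replicate 1.

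Zfp36, or tristetraprolin, which speeds the decay of AU-rich mRNAs including early gene transcripts, read 12.2, 14.1 and 14.8 in knockout and 14.7, 15.3 and 15.51 in wild type. All 6 arrays were just under the filter level and the groups overlapped. The difference without the filter was -0.15 ± 0.16 (SE, n = 3 arrays each; limma adjusted p = 0.649).

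**Figure D2:**
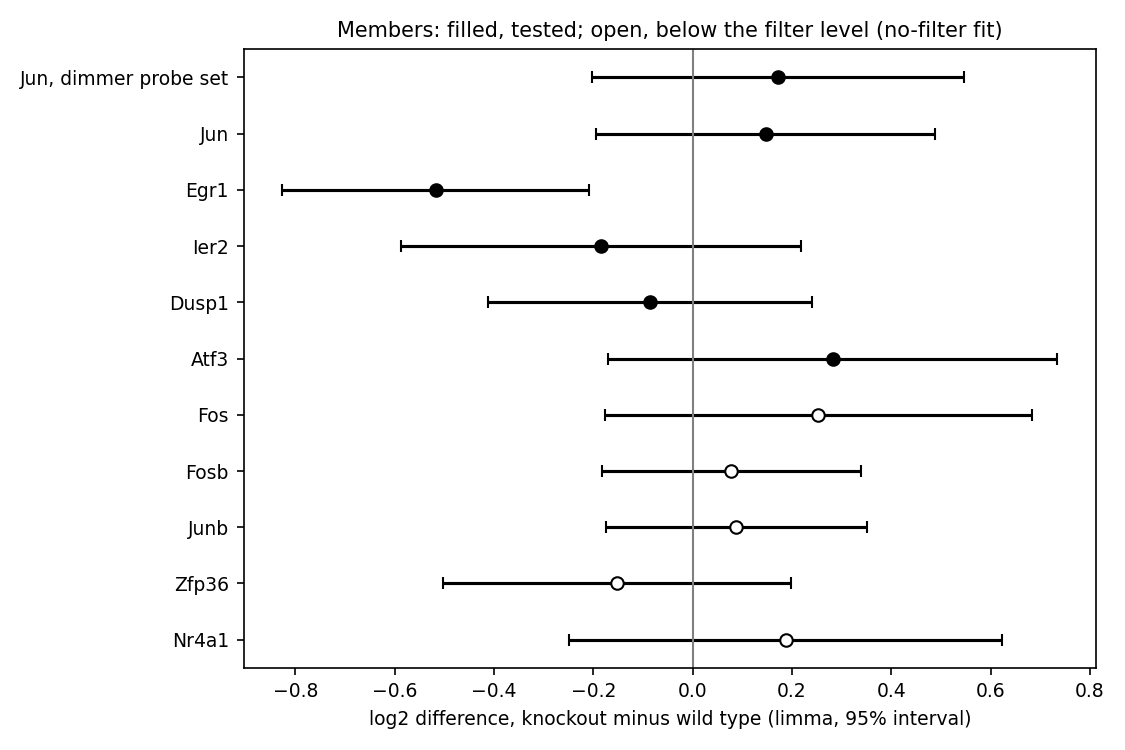
Log2 difference, knockout minus wild type, with limma's 95% interval for each member probe set (3 arrays per group). Filled points were tested and open points lay below the filter level and come from the fit without it. The Egr1 interval (-0.83 to -0.21) is the only one that does not include 0.

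From array to array, some pairs of tested members moved alike and others moved in opposite directions. Within groups, the deviations of pairs of tested member probe sets over the 6 arrays correlated from r = -0.90 (the dimmer Jun probe set and Egr1) to r = 0.90 (Ier2 and Atf3), with Egr1 and Dusp1 at 0.84. These are descriptions over 6 arrays that share their normalization. The within-group SD of the 5 tested members ran from 0.13 (Egr1) to 0.25 log2 units (Jun), against a median of 0.19 over all tested genes. Jun varied more within groups than 92.7% of the 1301 genes of like intensity (within 0.5 log2 units), while Egr1 did so for 24.3% of 1883.

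The average of the 5 tested members, each centred on its own mean, ranged only from -0.11 on knockout replicate 3 to 0.19 on wild-type replicate 3. The 6 other genes whose values followed that average most closely over the 6 arrays were Dhrs3, Ppic, Dbt, Ldlrad3, Cav1 and Mttp, with Pearson correlations of 0.978, 0.969, 0.959, 0.955, 0.949 and 0.948. They are the highest of 11892 ranked, and each had overlapping groups and differed by less than 0.11 log2 units between them.

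The promoters of these genes show which response elements the members have in common near the start site. RefSeq windows of 250 bases before the start (GRCm38.p6) were held for 8 members, all but Egr1 and Ier2, and were searched on both strands. TGACG, the core of the cyclic AMP response element, was in 6 of the 8 (Fos, Fosb, Junb, Dusp1, Atf3 and Nr4a1), against 17.8% of 32851 such windows of all genes. The full palindrome TGACGTCA, which contains TGACG on each strand, was in Dusp1 alone (1.55% of all windows), and the CArG box, the SRF site of a serum response element, in Zfp36 alone (1.47%). GCGNGGGCG, the EGR site, was in Fosb, Zfp36 and Nr4a1 (4.70% of all windows), and TATAAA was in Fos alone (12.4%). TGANTCA, a form of the AP-1 site, was in 0 of 8 (6.75%). Variants of that site, such as the longer TGACATCA in the Jun window, were not searched. A match is a description of the letters, and sites further upstream are outside this window.

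The windows of Fos, Dusp1 and Zfp36 are shown because they hold the cyclic AMP element core beside a TATA box, the full palindrome, and the CArG box. Capitals mark those motifs and any GCGNGGGCG. Fos lies at chr12:85473640-85473889 on the plus strand, Dusp1 at chr17:26508473-26508722 on the minus strand, and Zfp36 at chr7:28379229-28379478 on the minus strand.
Fos: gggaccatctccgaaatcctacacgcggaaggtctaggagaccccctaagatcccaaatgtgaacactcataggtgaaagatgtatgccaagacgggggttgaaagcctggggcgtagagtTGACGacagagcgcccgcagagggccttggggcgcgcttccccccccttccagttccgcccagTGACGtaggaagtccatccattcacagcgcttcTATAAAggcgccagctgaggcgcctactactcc
Dusp1: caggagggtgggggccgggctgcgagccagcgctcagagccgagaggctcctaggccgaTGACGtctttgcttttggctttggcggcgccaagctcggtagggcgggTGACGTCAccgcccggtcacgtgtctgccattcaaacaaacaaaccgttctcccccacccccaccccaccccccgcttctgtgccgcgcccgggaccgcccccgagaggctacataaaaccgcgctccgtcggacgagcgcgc
Zfp36: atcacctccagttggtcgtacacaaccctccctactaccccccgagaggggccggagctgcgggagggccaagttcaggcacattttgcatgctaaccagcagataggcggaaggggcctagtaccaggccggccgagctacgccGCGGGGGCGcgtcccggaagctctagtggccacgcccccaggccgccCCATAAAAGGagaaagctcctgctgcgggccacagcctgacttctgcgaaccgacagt
Fos and Dusp1 both carry TGACG, with Dusp1 well above the filter level on every array and Fos around it, and the groups overlapped for both.

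Of 17 tested genes of the MAP kinase cascade and of the factors that act on early gene promoters, 1 fell and 0 rose, against 3.55% called in either direction over all tested genes, and the median difference was -0.11 log2 units. The one that fell was Elk4, an ETS factor that binds with SRF at serum response elements. Its probe set read 1551, 1563 and 1589 intensity units in knockout and 2082, 2220 and 2194 in wild type. All knockout arrays lay close together and below all wild-type arrays. Elk4 fell by 0.47 ± 0.09 log2 units (SE, n = 3 arrays each; limma adjusted p = 0.0147), or 0.72 times the wild-type level. The call ended without wild-type replicate 2 (0.0946) or 3 (0.0819), and the difference there was -0.45 and -0.46. The stroma and endothelium marker sums given above were also lower on all knockout arrays, and their part in this result was not tested.

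Srf, the other ELK factors, Creb1 and Crebbp did not pass by their brightest probe sets. Srf, the factor that binds the CArG box, differed by 0.20 ± 0.14 (SE, n = 3 arrays each; limma adjusted p = 0.480), Elk1 by 0.08 ± 0.19 (0.866) and Elk3 by -0.15 ± 0.12 (0.543). Creb1, which binds the cyclic AMP element, differed by -0.12 ± 0.16 (0.711). Crebbp, the coactivator that CREB recruits, had a difference of -0.31 ± 0.09 by its brightest probe set and did not pass (0.0698), while another of its probe sets fell by 0.58 ± 0.13 (0.0276). Srf, Elk1, Elk3, Creb1 and Crebbp were named after their values were seen. A further 6 of the 23 genes in this list were not analysed here.

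**Figure D3:**
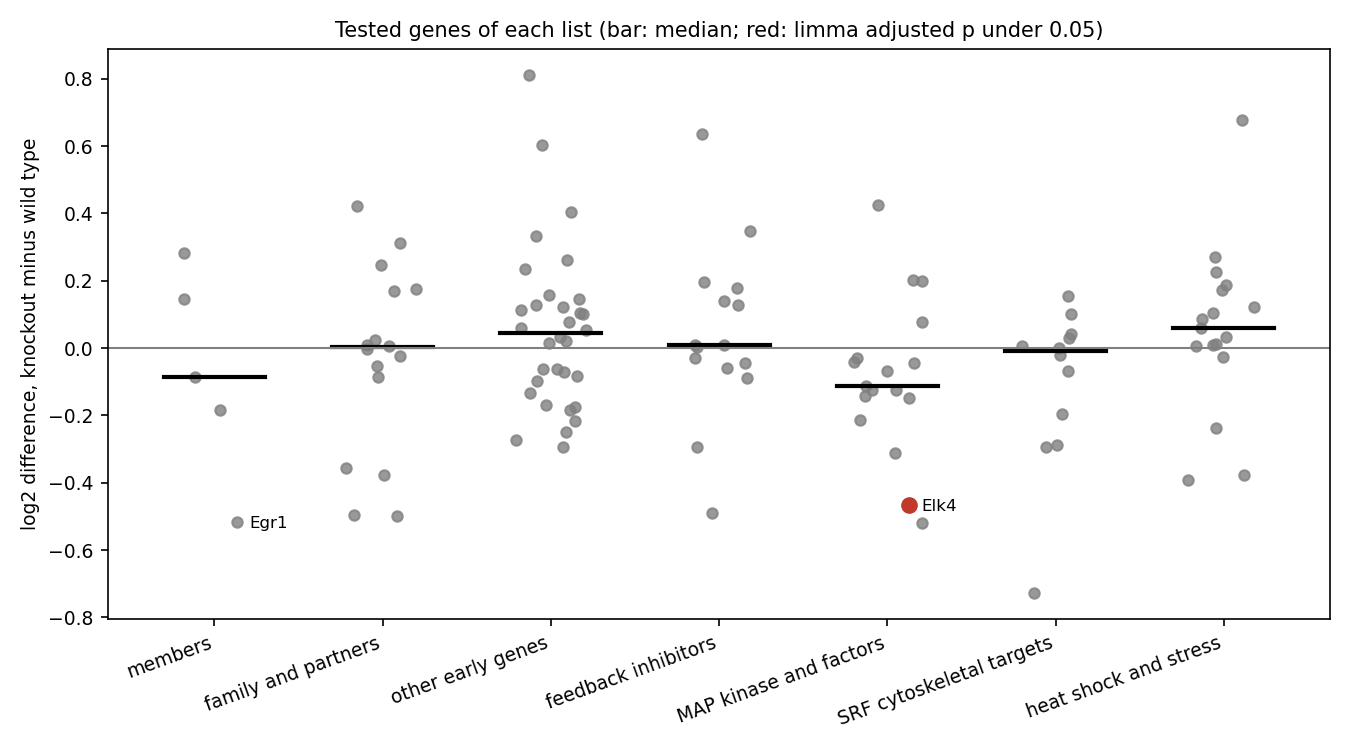
Log2 difference, knockout minus wild type, of every tested gene in the members' list and the 6 pathway lists, with the list's median as a bar; horizontal scatter has no meaning. Each gene is shown by its brightest probe set. Elk4, in red, is the only gene of these 7 lists past the adjusted threshold by that probe set, and their medians lie between -0.11 and 0.06.

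Among 16 tested family members and partners of the 10 genes, 0 passed limma's test and 3 had an unadjusted p under 0.05 (median difference 0.003). Over all tested genes 17.4% had such a p and 3.55% passed, the shares against which this and the next 4 lists are read. Nr4a3, a relative of NR4A1, had the smallest p and read 46.0, 63.0 and 65.9 in knockout and 101.9, 70.8 and 74.9 in wild type. All knockout arrays were below the wild-type ones, by 0.50 ± 0.21 log2 units (SE, n = 3 arrays each; limma adjusted p = 0.221). Jund, the JUN relative found in most cells, differed by 0.01 ± 0.09 (0.977), and Fosl2, a FOS relative, by -0.02 ± 0.11 (0.930), both named after their values were seen.

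Of 32 other early genes 0 passed limma's test through the brightest probe set and 1 had an unadjusted p under 0.05, with a median difference of 0.04. That gene was Id1, an inhibitor of basic helix-loop-helix factors, which read 263, 138 and 120.2 in knockout and 64.9, 102 and 122 in wild type. Knockout replicate 1 was the highest array and wild-type replicate 1 the lowest, and the groups overlapped (0.81 ± 0.32, SE, n = 3 arrays each; limma adjusted p = 0.177). Without knockout replicate 1 the difference was 0.47 (0.400). Another probe set of Ccn1, a gene of this list, passed and is described under Other observations.

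Of 15 feedback inhibitors 0 passed limma's test through the brightest probe set and 2 had an unadjusted p under 0.05, with a median of 0.01. The 2 were Dusp7 and Dusp4. Dusp4, named after its values were seen, was higher in knockout (0.63 ± 0.25, SE, n = 3 arrays each; limma adjusted p = 0.173). It was under the filter level on all 3 wild-type arrays and entered the test through its knockout values alone. Dusp7, a phosphatase that acts on ERK kinases, read 467, 349.9 and 337 in knockout and 475, 549 and 587 in wild type. Knockout replicate 1 lay just under the lowest wild-type array. The difference was -0.49 ± 0.17 log2 units (SE, n = 3 arrays each; limma adjusted p = 0.122), while the other Dusp7 probe set fell by 0.92 ± 0.22 (0.0372). Nab1 and Nab2, which repress EGR factors, differed by 0.002 ± 0.16 and -0.03 ± 0.17 (limma adjusted p = 0.996 and 0.945), and were named after their values were seen.

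**Figure D4:**
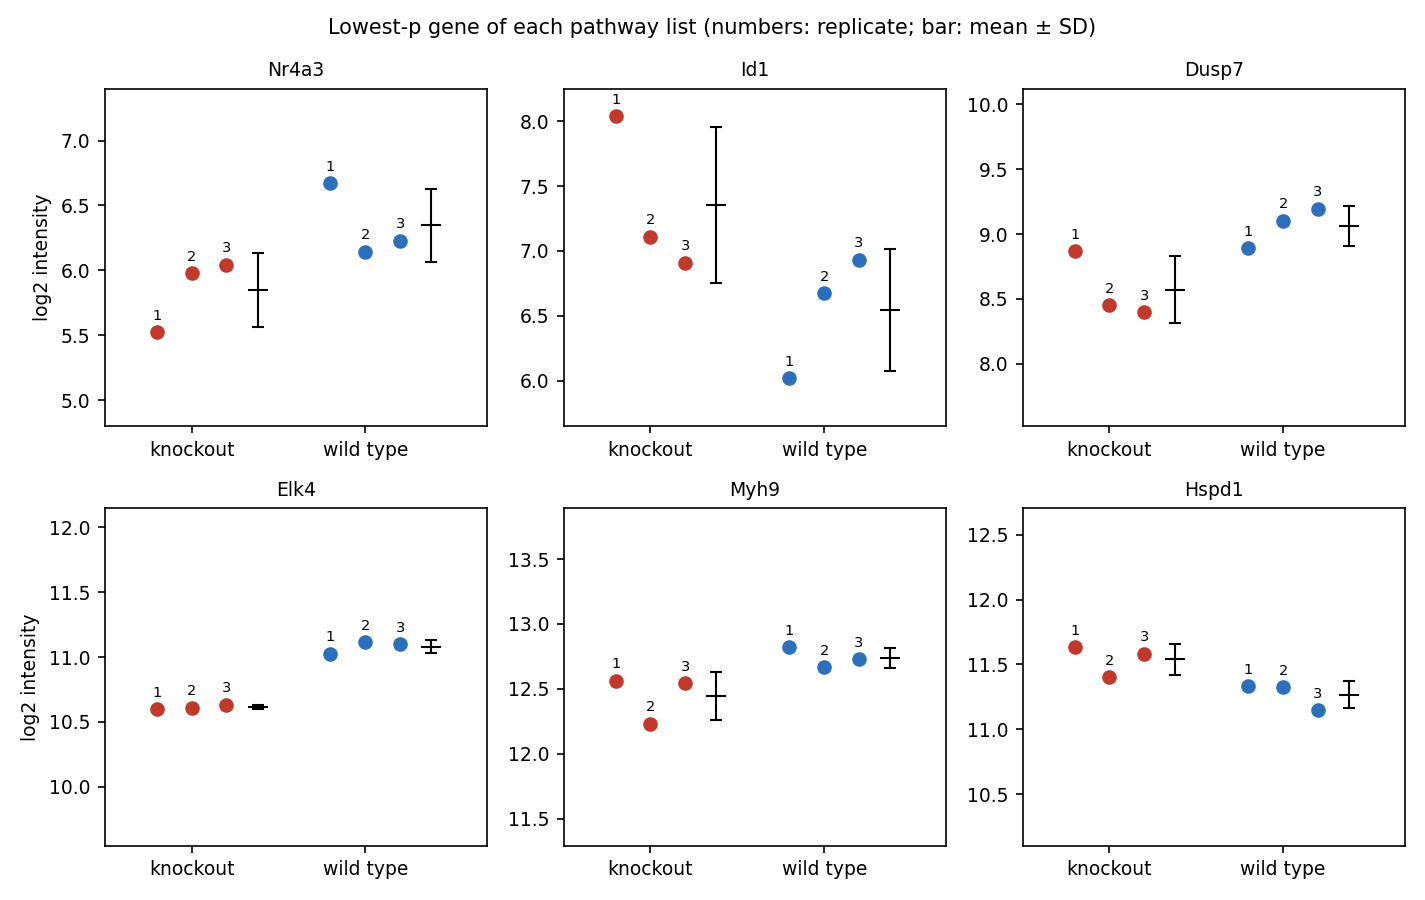
Log2 intensity on the 6 arrays of the gene with the smallest p in each of the 6 pathway lists, with replicate numbers and the mean ± SD of 3 arrays. Elk4 is at 10.60 to 10.63 on knockout arrays and 11.02 to 11.12 on wild-type arrays, and the groups of Id1 overlap.

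The SRF targets of the cytoskeleton and the heat shock genes were without a call. Of 12 cytoskeletal targets 0 passed limma's test and 2 had an unadjusted p under 0.05 (median -0.01). Myh9, the heavy chain of non-muscle myosin, had the smallest p (-0.29 ± 0.10, SE, n = 3 arrays each; limma adjusted p = 0.118), and its other tested probe sets differed by -0.12 and -0.18. Of 17 heat shock and stress genes 0 passed and 4 had an unadjusted p under 0.05, with 13 of 17 higher and a median of 0.06. The 4 were Hspd1, Hspb1 and Hsp90aa1, which were higher (0.27, 0.68 and 0.23), and Hspa1b, which was lower (-0.39). All but Hspd1 were named after their values were seen. Hspd1, the mitochondrial chaperonin, read 3177, 2706 and 3069 in knockout and 2578, 2566 and 2266 in wild type. All knockout arrays were above all wild-type arrays, by 0.27 ± 0.10 (limma adjusted p = 0.157), as held for 12.3% of tested genes. The Gapdh control probes at the 3' end exceeded those at the 5' end, a measure of RNA breakdown, by 1.13 to 1.52 log2 units on knockout arrays, overlapping the 0.985 to 1.302 of wild-type arrays. For the actin control probes this excess was larger, at 2.45 to 2.75 on knockout arrays and 2.28 to 2.74 on wild-type arrays, which also overlapped.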

How the data were processed

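Probe set intensities, on a linear scale, were deposited as made by the authors with GCRMA, per the submitters' processing notes; the version is not given in the sources used here. This method compresses dim values near a floor, so differences between them mean little, and the number of arrays limits the precision.

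Of 45101 probe sets, 64 controls were left out. Intensities were taken to log2, and 22040 probe sets with log2 of at least 4 on at least 3 arrays were tested with limma 3.58.1 in R 4.3.3 (lmFit with genotype alone, eBayes with trend, 2-sided). Benjamini-Hochberg adjustment ran over all of them, with a threshold of 0.05. A gene was represented by its probe set with the highest mean over the 6 arrays. Symbols came from the platform annotation, of which 34741 of 34945 single-gene probe sets matched RefSeq by gene identifier. Of 45037 non-control probe sets, 932 named several genes and 9160 none.

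The text names all members, the genes past the threshold in each list (at most 5) or the one with the smallest p, and the 6 genes most like the members; others are marked. Members and lists were chosen with earlier results of these data known. The fit was tested on simulated data. Of the array pairs, 0 held identical values. Alternatives were other filters, eBayes forms, weights, normalizations, probe set rules, a pseudocount, the replicate number as a block and leaving out each array. Fits without the filter and without knockout replicate 1 together were added after seeing the data.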

Additional observations from a re-analysis of the deposited data

How the results depend on the processing

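With 3 arrays a group, small differences could not be resolved, and dim members have only a bound. Over all tested genes, 422 calls became 727 with no filter and 220 with the replicate number as a block, and 157 to 555 on leaving out 1 array (157 without wild-type replicate 2, 161 without wild-type replicate 1, 172 without wild-type replicate 3, 255 without knockout replicate 1). Of the members, 0 passed, but 1 did (Egr1) with averaged probe sets and 1 (Egr1) without _s_at and _x_at probe sets; Egr1 was lower in all 17 alternatives. Ier2 and Atf3 kept their sign in all 17, Jun and Dusp1 in 16 each: without knockout replicate 2 Jun was at -0.036 (range over left-out arrays -0.036 to 0.27), and without knockout replicate 3 Dusp1 was at 0.033 (-0.21 to 0.033). Other filters, other eBayes forms, the replicate block and leaving out _s_at and _x_at probe sets left each member's difference unchanged. The sign could not turn in those settings, so they say nothing about direction.

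Averaged probe sets gave 1 call among other early genes (Ccn1) and 1 among feedback inhibitors (Dusp7), and leaving out _s_at and _x_at probe sets also gave 1 (Dusp7). Among cascade genes and factors the count was 2 with quantile normalization (Elk4 and Crebbp), 0 with the replicate block, and 0 to 2 with 1 array left out, and among cytoskeletal targets 0 to 1 (Actg2, without wild-type replicate 2). The cause of these shifts was not tested. Same-numbered arrays deviated in opposite ways (r = -0.17, -0.25 and -0.17), and 0 of 6 arrays correlated best with its own number, so the numbers do not pair the samples. With the replicate block, Egr1 had a limma adjusted p of 0.166 and Elk4 of 0.0857.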

Other observations

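The probe sets of Ccn1, which encodes a matricellular protein induced with the early genes, differed in sign. The brightest read log2 5.56, 4.89 and 5.32 in knockout and 5.30, 5.40 and 5.37 in wild type, so its groups overlapped. The other tested one read log2 4.32, 4.57 and 5.10 in knockout and 3.02, 3.06 and 3.10 in wild type, under the filter level on all 3 wild-type arrays. That probe set differed by 1.60 ± 0.22 log2 units (SE, n = 3 arrays each) and passed (limma adjusted p = 0.0017). It entered the test through its knockout values alone. Both carry the suffix _x_at, given to probe sets with probes shared between unlike transcripts. Ccn1 was chosen after its values were seen.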
